A study of Mus musculus with 4 samples.

Results

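The Distal-less homeobox genes Dlx1, Dlx2, Dlx3, Dlx4, Dlx5 and Dlx6 were examined in ATAC-seq data from mouse facial surface ectoderm. ATAC-seq finds nucleosome-free DNA by the places where a transposase can insert. Members were all peaks whose centre lay within 100 kb of the principal start site of any of the 6 genes, which gave 74 of 65467 control peaks and 5 of 3103 AP-2-dependent regions. The Dlx1-Dlx2 pair on chromosome 2 had 22 control peaks and 2 AP-2-dependent regions, the Dlx3-Dlx4 pair on chromosome 11 had 36 and 3, and the Dlx5-Dlx6 pair on chromosome 6 had 16 and 0.

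The study had 4 libraries at embryonic day 11.5, with 2 from control embryos and 2 from EDKO embryos. EDKO embryos carried Crect together with Tfap2a flox/flox and Tfap2b flox/flox, and so lacked the transcription factors AP-2α and AP-2β wherever Crect had acted, while their control littermates were Tfap2a flox/+ and Tfap2b flox/+ without Crect, so that each group held floxed alleles. In Crect, Cre is under an intronic enhancer of Tfap2a, and the study's methods state that the line can recombine more widely than the ectoderm, for which the sires were screened. Ectoderm was peeled from the facial prominences with dispase. Control peaks came from both control libraries called together, and an AP-2-dependent region is an interval called in the control libraries set against the EDKO libraries, meaning that it was less open in EDKO ectoderm. Because each list is a single call on combined libraries, no value below has an n or an error between libraries, and no difference was tested. A region that was open in fewer ectoderm cells and a region that was less open in each cell cannot be told apart. Among lists of cell type markers, the start site lay in a control peak for 12 of 12 surface ectoderm genes, 9 of 12 mesenchyme genes, 4 of 6 neuronal genes, 2 of 6 blood genes, 1 of 6 endothelial genes and 1 of 4 muscle progenitor genes. An open start site is not a measure of expression, and the part of other cell types in the Dlx values was not tested.

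Dlx genes encode homeodomain transcription factors related to Distal-less of the fly. In mammals they lie in pairs whose genes face each other, and the sequence between the genes of a pair is known to hold enhancers that both can use. In the branchial arches they are expressed in a nested order, with Dlx1 and Dlx2 reaching farthest towards the upper jaw, Dlx5 and Dlx6 restricted to the lower part of the arch, where they act downstream of endothelin signalling to give the lower jaw its identity, and Dlx3 and Dlx4 nearest the tip. Dlx genes are also expressed in ectoderm. Dlx3 in particular acts in epidermis, hair follicles and placenta, and Dlx5 marks anterior and placodal ectoderm early on. AP-2 factors bind palindromes of the form GCCNNNGGC, and homeodomain proteins bind sites with the core TAATTA.

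The sequences on which the comparison with EDKO ectoderm rests are the 5 AP-2-dependent regions, given here on the plus strand of GRCm38 (mm10), 5′ to 3′, each whole or, where longer, as 300 bases around its summit. Capitals mark matches to GCCNNNGGC, to the looser GCCNNNGGG or to TAATTA on either strand, and overlapping matches run together.
Between Dlx1 and Dlx2, chr2:71539663-71539962: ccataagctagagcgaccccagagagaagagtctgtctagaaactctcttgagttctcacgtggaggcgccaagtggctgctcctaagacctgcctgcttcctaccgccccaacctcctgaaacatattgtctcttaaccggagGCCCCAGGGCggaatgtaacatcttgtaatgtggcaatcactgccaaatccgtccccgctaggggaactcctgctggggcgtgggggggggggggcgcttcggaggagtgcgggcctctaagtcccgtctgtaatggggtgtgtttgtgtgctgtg
Between Dlx1 and Dlx2, chr2:71541358-71541657: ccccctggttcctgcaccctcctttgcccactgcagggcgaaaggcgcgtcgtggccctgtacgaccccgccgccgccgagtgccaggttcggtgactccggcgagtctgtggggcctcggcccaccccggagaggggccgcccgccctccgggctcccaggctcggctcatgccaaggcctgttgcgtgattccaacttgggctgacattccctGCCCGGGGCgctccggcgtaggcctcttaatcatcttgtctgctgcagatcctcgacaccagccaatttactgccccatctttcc
Further match in the same region, chr2:71541186-71541224: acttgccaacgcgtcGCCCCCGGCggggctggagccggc
Itga3 intron upstream of Dlx3, chr11:95070230-95070529: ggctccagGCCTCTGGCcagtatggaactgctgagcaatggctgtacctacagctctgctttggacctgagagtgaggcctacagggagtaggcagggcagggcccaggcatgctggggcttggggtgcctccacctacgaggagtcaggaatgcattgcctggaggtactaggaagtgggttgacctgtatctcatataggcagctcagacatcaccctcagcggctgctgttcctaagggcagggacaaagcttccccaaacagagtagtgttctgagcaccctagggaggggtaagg
Upstream of Dlx4, chr11:95182067-95182366: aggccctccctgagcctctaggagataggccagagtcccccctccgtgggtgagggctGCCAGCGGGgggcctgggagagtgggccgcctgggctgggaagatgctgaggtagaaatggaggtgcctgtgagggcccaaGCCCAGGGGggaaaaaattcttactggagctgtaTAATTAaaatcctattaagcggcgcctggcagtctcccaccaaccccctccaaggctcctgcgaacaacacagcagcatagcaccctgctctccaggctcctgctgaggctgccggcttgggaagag
Far upstream of Dlx4, chr11:95225490-95225753: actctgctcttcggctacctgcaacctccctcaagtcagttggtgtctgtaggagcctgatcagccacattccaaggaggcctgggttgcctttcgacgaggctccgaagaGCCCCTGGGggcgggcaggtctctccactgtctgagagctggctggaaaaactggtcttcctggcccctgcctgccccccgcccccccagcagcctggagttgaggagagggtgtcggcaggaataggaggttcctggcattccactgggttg

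GCCNNNGGC was present in 2 of the 5 regions, against 29.7% of all 3072 AP-2-dependent regions on chromosomes. The stronger region between Dlx1 and Dlx2 held it 2 times, as GCCCCCGGC 303 bp and as GCCCGGGGC 69 bp from its summit, and the Itga3 region held it as GCCTCTGGC 82 bp from its summit. The other 3 regions held GCCNNNGGG, which 47.6% of all regions did. The region 35.9 kb upstream of Dlx4 also held TAATTA, which 13.3% of all regions did. Regions differ in length, so these shares are descriptions, and a match is not a binding site.

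All 6 Dlx start sites were open in control ectoderm, as were all 17 annotated start sites of the 6 genes. Across the genome 61.6% of 21938 protein-coding genes had their principal start site in a control peak. The peaks at Dlx1 and Dlx5 were much wider than most, while those at Dlx3, Dlx4 and Dlx6 were of ordinary size. The values given for each come from the peak caller's test of the combined libraries. They are the −log10 p at the summit and the area under the curve, a score for the −log10 p along the peak. Their medians over the 13510 genes with such a peak were 9.72 and 4320, and the median width was 1414 bp.

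The Dlx1 peak at chr2:71527920-71531391 was 3472 bp wide with a summit of 11 and an area of 8954, and its width exceeded that of 97.0% of start-site peaks. Its summit lay 1577 bp downstream of the principal start site, inside the gene. The Dlx2 peak at chr2:71545336-71547503 was 2168 bp wide with a summit of 9.39 and an area of 7510. By area the start-site peaks of Dlx1, Dlx2, Dlx5 and Dlx3 were above the median, at the percentiles 90.0, 83.1, 77.8 and 64, and those of Dlx4 and Dlx6 were at 48.2 and 46.1. The Dlx5 peak at chr6:6879916-6883122 was 3207 bp wide with a summit of 10.8 and an area of 6823, and was wider than 96.0% of start-site peaks. Dlx5 acts with Dlx6 in lower jaw identity. Its partner Dlx6 had a peak at chr6:6863167-6865002 that was 1836 bp wide with a summit of 8.16 and an area of 4072. The Dlx3 peak at chr11:95119635-95121155, at the start of the epidermal member, was 1521 bp wide with a summit of 10.3 and an area of 5385. Dlx4, its partner, had the lowest summit of the 6 at 7.64, in a peak of 1724 bp at chr11:95144866-95146589 with an area of 4202, and this summit exceeded 25.6% of start-site peaks. None of the 6 start-site peaks overlapped an AP-2-dependent region. Among all control peaks centred no farther than 5 kb from a protein-coding start site 1.52% did.

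**Figure D1:**
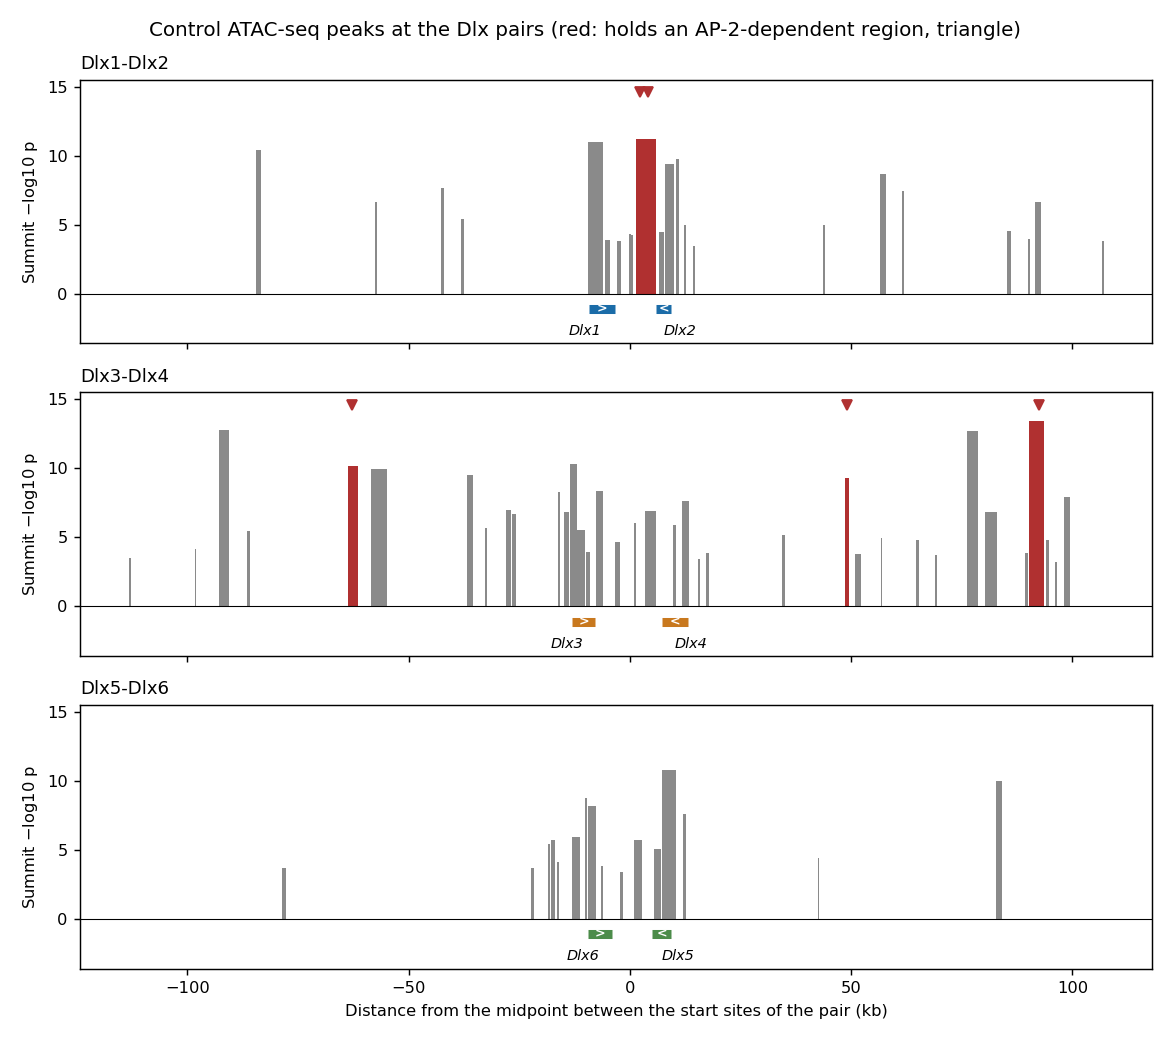
Control peaks around the 3 Dlx pairs. Each bar is a control peak at its distance in kb from the midpoint between the start sites of the pair (the narrowest are drawn slightly wider than they are), its height is the summit −log10 p, red bars hold an AP-2-dependent region (red triangles), and the coloured blocks with arrowheads are the genes. Red bars stand between Dlx1 and Dlx2 and on either side of Dlx3-Dlx4, and there is none at Dlx5-Dlx6.

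The surroundings of the Dlx genes were dense in open chromatin, most so at Dlx3-Dlx4. Within 100 kb of its start site Dlx4 had 33 control peaks and Dlx3 had 31, more than 99.5% and 99.3% of protein-coding genes. Dlx2 had 22 and Dlx1 had 20, at the percentiles 94.1 and 91.4. Dlx5 and Dlx6 had 16 each, at the percentile 83.7. The median gene had 8, with quartiles of 4 and 13. The windows of paired genes overlap almost wholly, so their counts are not independent. A member was the nearest protein-coding gene for 20 of 22, 22 of 36 and 15 of 16 peaks of the 3 pairs in order. At Dlx3-Dlx4 the remaining peaks were nearest to other genes, with 3 at Pdk2, a pyruvate dehydrogenase kinase, 3 at Itga3, an integrin subunit of epithelial cells, 7 at Tac4, a tachykinin gene, and 1 at Samd14.

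At Dlx5-Dlx6 8 of 16 peaks lay farther than 5 kb from the closest start site of a protein-coding gene. At Dlx1-Dlx2 15 of 22 did, and at Dlx3-Dlx4 25 of 36. Start sites of non-coding genes such as Dlx6os1 and Dlx1as were not counted. Over all control peaks the share was 69.8%. The nearer peaks at Dlx5-Dlx6 included the start-site peak of the neighbouring gene Sdhaf3, which lay 74.0 kb upstream of Dlx5. The 74 peaks covered 22.9 kb at Dlx1-Dlx2, 44.7 kb at Dlx3-Dlx4 and 16.9 kb at Dlx5-Dlx6. They were wider than the usual control peak, with medians of 716, 913 and 767 bp against 560 bp, and 52 of the 74 were above that median. Their summits had medians of 5.21, 5.97 and 5.58 against 5.10, and 43 of the 74 lay above it. Of the 74 summits, 42 lay between genes, 18 in introns, 7 in coding exons, 4 in non-coding exons and 3 in UTRs.

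The interval between paired start sites was more open than in most other convergent pairs of genes. Control peaks covered 68.8% of the 18.6 kb between the start sites of Dlx1 and Dlx2, 44.5% of the 26.1 kb at Dlx3-Dlx4 and 44.5% of the 18.8 kb at Dlx5-Dlx6. Among 790 neighbouring protein-coding genes that face each other with start sites 15 to 30 kb apart, a range set after these values were seen and including the Dlx pairs, the median was 6.09%. Dlx1-Dlx2 ranked 1 of 790, Dlx3-Dlx4 ranked 5 and Dlx5-Dlx6 ranked 6. Each interval takes in both gene bodies and the parts of their start-site peaks that lie inside it. The compared pairs were not limited to genes with open start sites. Of the peaks touching the Dlx intervals, 4 of 8, 4 of 9 and 2 of 6 in the same order were centred between the genes.

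**Figure D2:**
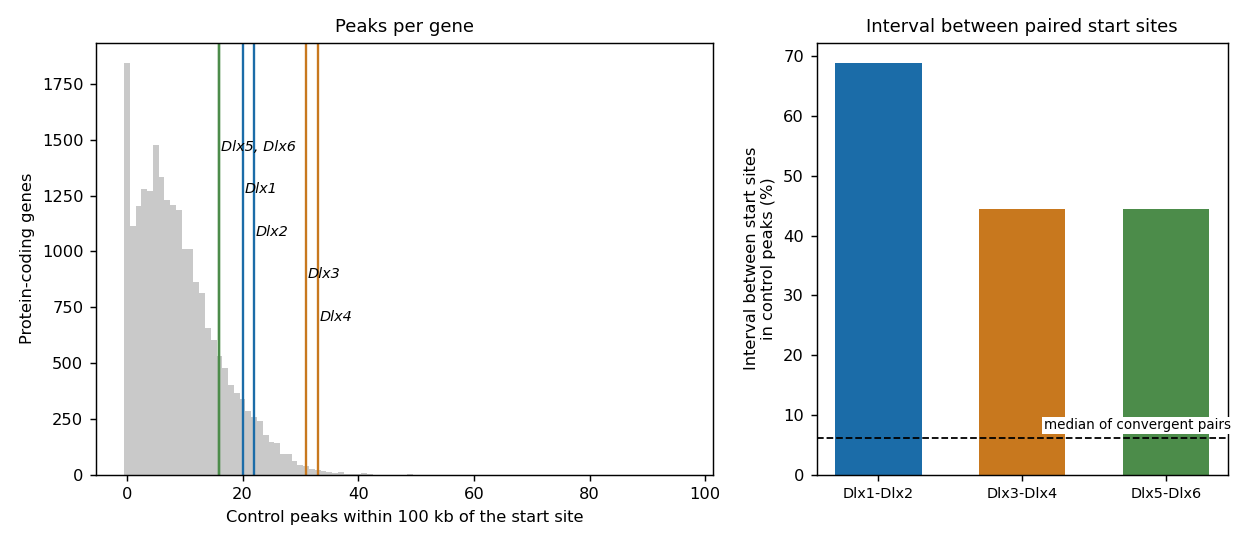
Left, number of protein-coding genes (y axis) by the number of control peaks within 100 kb of the start site (x axis), with coloured lines at the Dlx genes, from 16 for Dlx5 and Dlx6 to 33 for Dlx4. Right, percentage of the interval between paired start sites that lay in control peaks, 68.8% for Dlx1-Dlx2 and 44.5% for each of the others, with a dashed line at the median of 790 convergent pairs, 6.09%.

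A single broad peak was the widest in the Dlx1-Dlx2 interval, where control peaks covered 12827 bp. It spanned 4650 bp at chr2:71538763-71543412, from the intergenic sequence to the last 5 bp of Dlx2, with a summit of 11.2 and an area of 15598. By area it ranked 175 and by width 161 of the 65467 control peaks. It was the strongest peak within 100 kb of either gene, ahead of the Dlx1 start-site peak and of the start-site peak of Metap1d, a mitochondrial methionine aminopeptidase, at 10.4. The other 3 peaks between the genes were small, of 847, 217 and 203 bp with summits of 3.79, 4.36 and 4.25, and lay over the antisense gene Dlx1as. At Dlx3-Dlx4 the 4 intergenic peaks had summits of 8.35, 4.66, 6.07 and 6.91, and the widest reached 2392 bp. At Dlx5-Dlx6 there were 2, of 559 bp with a summit of 3.42 and of 1790 bp with a summit of 5.70. The intergenic peaks of the 3 pairs therefore differed in strength, in that Dlx1-Dlx2 had its highest summit there and the other pairs did not. Between the peaks of different pairs blastn found 10 alignments, of which 8 fell in Dlx coding sequence on both sides and 2 were mostly repeats, and none joined the intergenic peaks of different pairs.

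**Figure D3:**
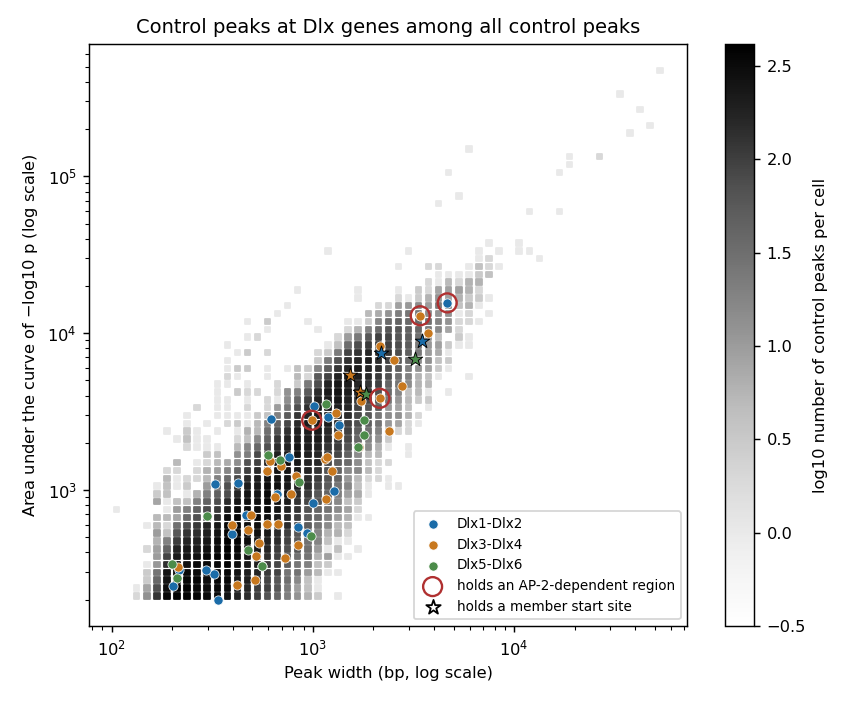
Area under the curve of −log10 p (y axis, log scale) against peak width in bp (x axis, log scale). Grey cells count all control peaks, coloured points are the 74 peaks at Dlx genes, stars hold a member start site and red rings mark the 4 peaks with an AP-2-dependent region. The Dlx1-Dlx2 intergenic peak is the ringed point at 4650 bp and 15598.

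The strongest peaks of the Dlx3-Dlx4 neighbourhood were not at its genes. The highest summit of all 74, at 13.4 with an area of 12910, belonged to a peak of 3414 bp at chr11:95223275-95226688, centred 78.7 kb upstream of Dlx4, and exceeded 98.6% of control peaks. The next were the start-site peak of Pdk2 at 12.8 and a peak of 2528 bp at 12.7, centred 64.3 kb upstream of Dlx4 at chr11:95209294-95211821. At Dlx5-Dlx6 the highest summits were the Dlx5 start-site peak at 10.8, the start-site peak of the neighbouring mitochondrial assembly factor gene Sdhaf3 at 9.98, and a peak of 600 bp at 8.80, centred 0.576 kb upstream of Dlx6 at chr6:6862459-6863058. The antisense gene Dlx6os1, which overlaps Dlx6 and is also known as Evf2, contained 9 of the 16 peaks of that pair, and 0 of its 3 annotated start sites lay in a peak. At Dlx1as 3 of 4 start sites lay in a peak, as did the single start site of Dlx4os.

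Few of these peaks were called less open in EDKO ectoderm. An AP-2-dependent region overlapped 4 of the 74 control peaks, or 5.41% (95% Wilson interval 2.12 to 13.1), against 4.48% of all control peaks. By pair the counts were 1 of 22 at Dlx1-Dlx2 (4.55%, 0.807 to 21.8), 3 of 36 at Dlx3-Dlx4 (8.33%, 2.87 to 21.8) and 0 of 16 at Dlx5-Dlx6, which allows a share of up to 18.8% if the limit is set at 3 peaks and 19.4% by the Wilson interval. The intervals, which cover counting error only, overlap each other and the share over all peaks, so no difference between the pairs was detectable at these numbers. All 4 peaks were distal, that is centred farther than 5 kb from the principal start site of every protein-coding gene. Among such control peaks 5.75% held a region. Start sites of non-coding genes such as Dlx1as were not counted. Of the 11 Dlx peaks at least 2000 bp wide 3 held a region, against 5.31% of control peaks of that width. This subset is small and was among several looked at, and the difference was not tested. By gene, 4 of 6 had a region within 100 kb, namely Dlx1, Dlx2, Dlx3 and Dlx4, against 20.2% of all protein-coding genes and 37.3% of the 4441 genes with at least 15 control peaks in the same window. Dlx1 and Dlx2 shared the same 2 regions, and the 2 of Dlx3 were among the 3 of Dlx4, so the 4 genes are not independent.

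At Dlx1-Dlx2 both regions lay in the broad intergenic peak. The stronger, of 662 bp at chr2:71541122-71541783, had a summit of 9.74 and an area of 1457, above 92.5% and 91.5% of all AP-2-dependent regions, whose medians were 4.40 and 395. Its summit was at the same base as that of the control peak, and its centre lay 13.3 kb downstream of the Dlx1 start site and 5.30 kb downstream of that of Dlx2. The weaker, of 305 bp at chr2:71539663-71539967, had a summit of 5.24 and an area of 430, and its summit was 1758 bp away. The regions took up 14.2% and 6.56% of the control peak. Most regions took up a larger part of their peak, the median being 62.8%, so most of the open sequence between Dlx1 and Dlx2 was outside the called regions.

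At Dlx3-Dlx4 the 3 regions were 1 to a peak and lay on both sides of the pair, none of them between the genes. The strongest, of 336 bp at chr11:95070230-95070565, had a summit of 7.18 and an area of 1012, above 87.5% and 86.4% of regions. It lay in an intron of Itga3, 49.7 kb upstream of Dlx3, and Itga3 was the nearest gene at 6.32 kb. The region at chr11:95181985-95182366, of 382 bp, had a summit of 4.15 and an area of 388, both below the median, and was 35.9 kb upstream of Dlx4, its nearest gene. The region at chr11:95225490-95225753, of 264 bp, had a summit of 5.37 and an area of 328. It was inside the strongest control peak of the pair, 79.4 kb upstream of Dlx4 and 35.9 kb from Tac4, the gene nearest to it. These 3 regions took up 15.6%, 38.7% and 7.73% of their control peaks. When regions were assigned by basal domains with extension to the next gene, Dlx1 and Dlx2 received both of theirs, Dlx4 received 2 and Dlx3 received 0, since the Itga3 region went to Itga3 and Pdk2.

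**Figure D4:**
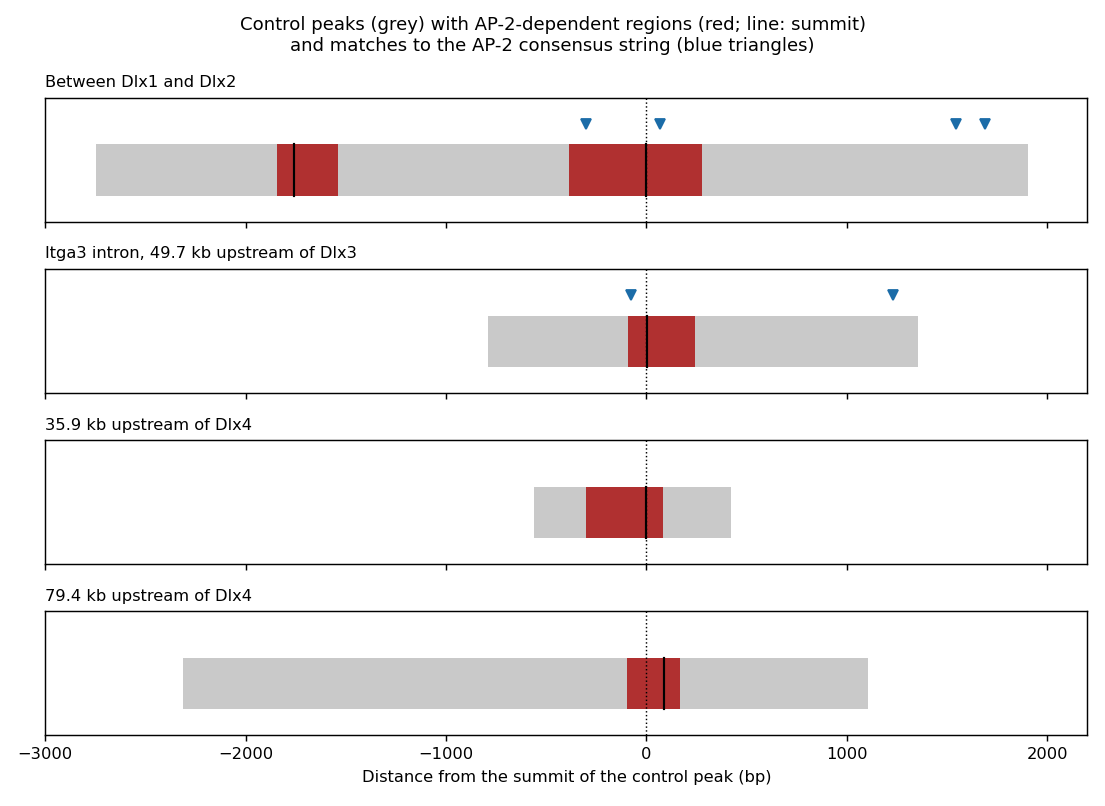
The 4 control peaks (grey) that hold AP-2-dependent regions (red), in bp from the summit of the control peak (dotted line). Black lines are region summits and blue triangles are matches to the AP-2 consensus string. The stronger Dlx1-Dlx2 region is centred on the peak summit, the weaker lies 1758 bp away, and the peaks upstream of Dlx4 hold no match.

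How often AP-2 strings stood near Dlx summits, and at which pair, depended on the form of the string. GCCNNNGGC, searched on both strands within 100 bp of the summit, was found at 11 of the 74 Dlx peaks, or 14.9% (8.51 to 24.7), against 14.4% of control peaks. It was at 7 of 22 Dlx1-Dlx2 peaks (31.8%, 16.4 to 52.7), 3 of 36 Dlx3-Dlx4 peaks (8.33%, 2.87 to 21.8) and 1 of 16 Dlx5-Dlx6 peaks (6.25%, 1.11 to 28.3). These intervals overlap one another. That of Dlx1-Dlx2 began above the share over all control peaks, and it was one of many shares by pair and string that were looked at. All 11 were distal in the same sense, which counts protein-coding start sites only. They included the peak of 203 bp over the antisense gene Dlx1as. Among distal peaks 11 of 48 Dlx peaks (22.9%, 13.3 to 36.5) and 12.3% of control peaks had the string. At 5 kb or less it was at 0 of 26 Dlx peaks, which allows up to 11.5% by the limit of 3 peaks and 12.9% by the Wilson interval, and at 19.3% of control peaks. With 4 instead of 3 bases between GCC and GGC the order of the pairs was another, with 1 of 22, 8 of 36 and 0 of 16 against 12.8% of control peaks, and 3 of the 26 Dlx peaks at 5 kb or less had it. The looser GCCNNNGGG was at 26 of the 74 Dlx peaks (35.1%, 25.2 to 46.5) against 23.3% of control peaks, an interval wholly above that share. It was at 5 of 22 Dlx1-Dlx2 peaks, 16 of 36 Dlx3-Dlx4 peaks and 5 of 16 Dlx5-Dlx6 peaks, and at 7 of the 26 at 5 kb or less. This share was also one of many that were looked at. The string is rich in G and C, and so were the Dlx peaks, with a median GC content of 55.2% against 51.8% over control peaks. The part of base composition in the share was not tested.

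TAATTA was within 100 bp of 5 of the 74 summits, or 6.76% (2.92 to 14.9), against 4.22% of control peaks. These included the Dlx2 start-site peak and the peak of 622 bp just upstream of it, which had a summit of 9.73. GGAATG, the core of TEAD sites, was at 16 (21.6%, 13.8 to 32.3) against 17.9%, and 11 of these were at Dlx3-Dlx4 (30.6%, 18.0 to 46.9). The consensus of the p53 family, which includes the epidermal regulator p63, was at 3 (4.05%, 1.39 to 11.3) against 8.68%, and that of the insulator protein CTCF at 4 (5.41%, 2.12 to 13.1) against 6.21%. For each of these 4 strings the counting interval over the 74 peaks held the share over all control peaks. At 5 kb or less from a protein-coding start site TAATTA was at 2 of 26 Dlx peaks (7.69%, 2.14 to 24.1) against 1.76% of control peaks. Farther out it was at 3 of 48 (6.25%, 2.15 to 16.8) against 5.29%. For the other strings the intervals on each side of 5 kb held the share of control peaks there. These were among many shares looked at. The following windows of 200 bases around control summits are marked in the same way as the regions above. They show TAATTA upstream of Dlx2, TAATTA and GCCNNNGGC upstream of Dlx6, and GCCNNNGGG alone at the summit of the larger intergenic peak of Dlx5-Dlx6. That peak held GCCNNNGGC 1 time, outside the window.
Upstream of Dlx2, chr2:71548001-71548200: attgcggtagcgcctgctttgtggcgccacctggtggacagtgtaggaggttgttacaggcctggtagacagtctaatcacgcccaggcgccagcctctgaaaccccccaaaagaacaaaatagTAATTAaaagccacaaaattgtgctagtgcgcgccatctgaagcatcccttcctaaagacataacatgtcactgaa
Upstream of Dlx6, chr6:6856405-6856604: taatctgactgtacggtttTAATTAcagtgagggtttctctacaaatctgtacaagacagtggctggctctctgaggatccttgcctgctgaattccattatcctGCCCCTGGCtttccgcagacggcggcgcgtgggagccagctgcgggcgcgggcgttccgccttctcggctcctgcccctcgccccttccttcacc
Between Dlx5 and Dlx6, chr6:6874172-6874371: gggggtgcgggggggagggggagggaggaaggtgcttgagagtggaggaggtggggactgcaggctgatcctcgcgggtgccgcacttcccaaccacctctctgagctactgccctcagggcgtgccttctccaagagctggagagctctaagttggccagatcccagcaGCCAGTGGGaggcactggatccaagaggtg

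**Figure D5:**
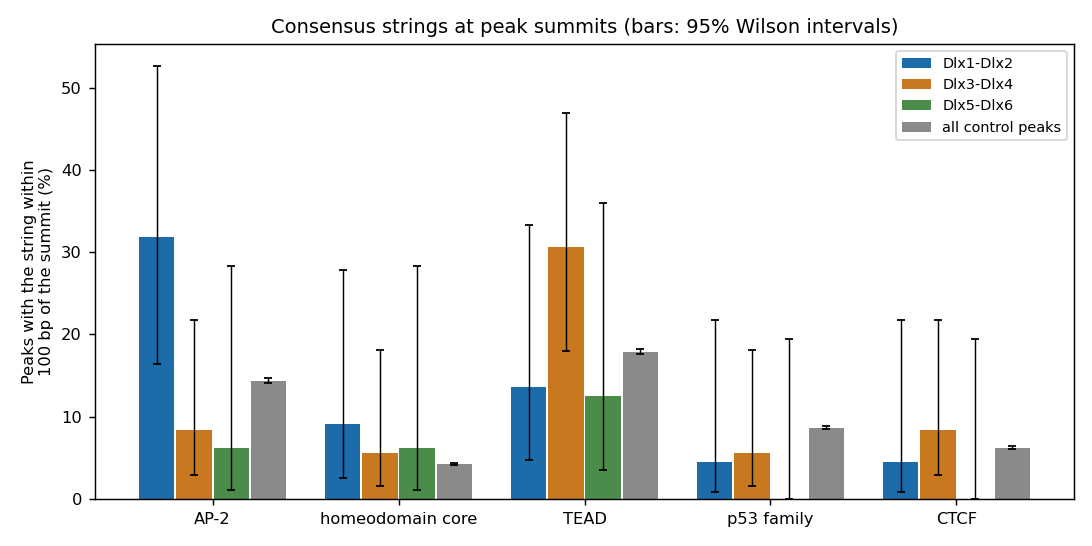
Percentage of peaks with each consensus string within 100 bp of the summit (y axis) for the 3 Dlx pairs and for all control peaks, with 95% Wilson intervals. The bar for the AP-2 string is 31.8% at Dlx1-Dlx2 and 14.4% over all control peaks, and all Dlx intervals are wide.

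Genes that act with the Dlx genes were described in the same way, from a list of 20 upstream signals, partners and targets in the arches and the ectoderm. Start sites of 18 of the 20 (90.0%) lay in a control peak, against 61.6% of all genes. The listed genes had a median of 12.5 control peaks within 100 kb, from 4 to 25. Of all genes 20.2% had an AP-2-dependent region within 100 kb. The share was 37.3% for genes with at least 15 control peaks, a group not matched to the list. In the list 8 genes (40.0%) had such a region. These were Trp63, which encodes p63 and is upstream of Dlx3 in epidermis, with 4 regions among 24 peaks, the basal keratin Krt14 with 4 among 18, the homeobox gene Msx1 with 2 among 17, the hair gene Hoxc13 with 2 among 22, and Edn1, the ligand upstream of Dlx5 and Dlx6, Hand1, Foxc1 and the placental gene Gcm1 with 1 each. Over the list 16 of 268 gene-peak pairs (5.97%) held a region, against 4.48% of all control peaks. The list was chosen with results of these data known, and the counts are a description.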

How the data were processed

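The 4 ATAC-seq libraries of E11.5 facial ectoderm were grouped by their labels. The authors trimmed adapters (NGmerge), aligned with Bowtie2 (--very-sensitive -k 10) to mm10 and called peaks with Genrich 0.5, combining libraries, without duplicates or mitochondrial reads. The deposited score is the area under the curve per bp of width times 1000, capped at 1000, and the deposited −log10 p at the summit is unadjusted. The area, also a deposited score, and the summit offset are from the same caller. Values were compared within their own list only. The lists give no counts, so the depth behind each peak is unknown, though the study's methods state a depth for the libraries.

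Start sites were those of the principal APPRIS transcript of GENCODE vM21 on GRCm38, with coordinates counted from 1. Distances to the closest start site, including the limit of 5 kb, used the peak centre and protein-coding genes only. Overlaps counted from 1 bp, and 21 chromosomes were used for sequence. Assignment used basal domains of 5 kb upstream and 1 kb downstream, extended up to 1000 kb. Alignments used blastn 2.17.0 (expect value 1e-04). Python 3.11.15, numpy 2.4.6 and scipy 1.17.1 were used, and programs were tested on simulated data. RefSeq's GRCm38 assembly gave the sequences. Named genes were the members, protein-coding genes within 100 kb of them, overlapping non-coding genes and listed genes with a region. Tac4 and Samd14, nearest to peaks at Dlx3-Dlx4, were added after their values were seen. Named peaks were those at member start sites, between paired genes or with a region, the 3 highest summits of each pair, and, chosen after their values were seen, those whose sequence is printed. The members and lists were chosen with earlier results of these data known. Peaks are no replicates, and no p-value is given. Coverage tracks and expression data were not used here. The values of 1 listed gene are not reported here.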

Additional observations from a re-analysis of the deposited data

How the results depend on the processing

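For 11 results, 77 alternative values were computed under 14 settings, and 66 stayed within 1.5 times the reported count or within the counting interval. The Dlx3-Dlx4 pair moved most. It had 23 control peaks within 50 kb, 62 within 250 kb (Dlx1-Dlx2 then had 42) and 22 where only peaks with a member as nearest start site were kept, and its peaks with an AP-2-dependent region fell from 3 to 1 both under that rule and with only peaks whose area was 500 or more. When an overlap had to reach 50% of both intervals, 0 peaks with a region were left at Dlx1-Dlx2 and at Dlx3-Dlx4, and the share over the Dlx peaks was 0, because the regions are small parts of their peaks. With 4 bases between GCC and GGC 1 of the 5 regions held the AP-2 string, and with GCCNNNGGG the share of summits was 35.1%, against 23.3% of all control peaks. The share of Dlx peaks with a region, 5.41% against 4.48% of all control peaks, fell below the latter within 250 kb (3.23%) and where a member was the nearest start site (3.51%), and at 50% overlap it was 0 against 2.87%. With areas of 500 or more it was 3.51% against 2.46%. The share of summits with the AP-2 string, 14.9% against 14.4%, was 11.3% within 50 kb and, with 4 bases between GCC and GGC, 12.2% against 12.8%. On which side of all control peaks these shares lay thus depended on the setting. With settings added after the data were seen, namely the same limit on area or convergent pairs 10 to 40 kb apart, the share of the interval in peaks was between 66.6% and 68.8% for Dlx1-Dlx2, and Dlx1-Dlx2 ranked 1 in each.

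No paired analysis was possible because each list is a single call on combined libraries, and for the same reason no library was left out. The values carry no error between libraries, the change in EDKO ectoderm has no size in the lists, and a peak without an AP-2-dependent region is not shown to have kept its accessibility. Distance does not show which gene a region acts on, and Dlx expression was not analysed here. The study states that expression of Dlx family members did not change significantly in its EDKO model. Its RNA-seq was on whole facial prominences at an earlier stage.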
